A study of Mus musculus with 19 samples.

Results

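MicroRNAs bound to Ago2 in parvalbumin (PV) interneurons were compared with those in somatostatin (SST) interneurons of the mouse neocortex. The comparison used the 2 PV libraries and the 2 SST libraries, chosen by their labels, out of 19 libraries in the series. It covered 528 miRNA names, of which 522 passed the filter on low values and were tested. Both groups came from mice of the mixed strain C57BL/6 & 129 at postnatal day 56, each library from 4 pooled neocortices, and both were precipitated with anti-Myc. Small RNAs of 19 to 24 nt were ligated to adaptors and sequenced. The remaining groups, among them Purkinje and Cerebellum (n = 3 libraries each), entered the tests through the filter and a shared estimate of the spread. Otherwise they are used only as context. Of these, the Gad2 group (n = 3 libraries, 4 pooled tissues each, neocortex, anti-Myc) carries the tag in GABAergic neurons at large, and the Camk2a group (n = 3, 1 tissue each, neocortex, anti-Myc) in excitatory neurons. The Neocortex group (n = 3, 1 tissue each) is whole tissue precipitated with anti-Ago2, and all 3 groups had the same strain and age as the PV and SST groups. The driver lines that put the tag into PV and SST cells are not given in the sources used here, and nothing states that replicates came from separate animals, so the p-values reflect how far these libraries spread, which may be technical.

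PV and SST interneurons are the largest classes of inhibitory neurons in the neocortex. PV cells are mostly fast-spiking basket and chandelier cells that contact the soma, proximal dendrites and axon initial segment of their targets, whereas SST cells, among them the Martinotti cells, mostly contact distal dendrites. A miRNA is cut from a hairpin precursor, 1 of its arms is usually retained by an Argonaute protein such as Ago2, and the seed near its 5′ end pairs with target mRNAs. A Myc-tagged Ago2 expressed in a chosen class of cells lets the miRNAs loaded in those cells be recovered from whole tissue without sorting. In the names, an asterisk marks the arm that was held to be the minor product when it was named.

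Mature sequences from RefSeq (GRCm38.p6) are shown for miRNAs on which the comparison turns and for which the table holds an entry, with the seed, bases 2 to 8, in capitals. The first set was higher in PV libraries.
miR-133b: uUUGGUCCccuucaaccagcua
miR-34a: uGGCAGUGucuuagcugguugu
miR-218: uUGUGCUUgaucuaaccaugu
The second set was lower in PV libraries, and sequences that share a seed stand next to each other.
miR-551b: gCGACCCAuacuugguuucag
miR-31: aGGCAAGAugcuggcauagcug
miR-137: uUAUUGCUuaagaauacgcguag
miR-873: gCAGGAACuugugagucuccu
miR-139-5p: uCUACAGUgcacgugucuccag
miR-204: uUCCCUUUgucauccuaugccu
miR-7a: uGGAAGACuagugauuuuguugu
miR-7b: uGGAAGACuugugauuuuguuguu
miR-132: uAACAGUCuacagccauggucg
miR-212-3p: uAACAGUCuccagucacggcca
miR-100: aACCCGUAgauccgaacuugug
miR-99a: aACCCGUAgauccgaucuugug
miR-181a: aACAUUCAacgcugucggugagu
miR-181b: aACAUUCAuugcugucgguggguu

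On GRCm38 with the GENCODE M21 annotation, miR-133b lay at chr1:20682834-20682855 on the plus strand in an exon of the long noncoding RNA Gm28653. miR-34a lay at chr4:150068473-150068494 on the plus strand, with no annotated gene on its strand. miR-218 has a copy in an intron of Slit2 at chr5:48223966-48223986 and a copy in an intron of Slit3 at chr11:35616840-35616860, both on the plus strand. miR-137 lay at chr3:118433901-118433923 (plus) in an exon of Gm26871, miR-139-5p at chr7:101475382-101475403 (plus) in an intron of Pde2a, miR-873 at chr4:36668556-36668576 (minus) in an intron of Lingo2, and miR-204 at chr19:22750610-22750631 (plus) in an intron of Trpm3. miR-7a is made from a copy in an intron of Hnrnpk at chr13:58392841-58392863 (minus) and a copy at chr7:78888295-78888317 (plus) with no gene on its strand. The deposited values are per miRNA name, so copies with the same mature sequence cannot be separated.

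The 2 PV libraries held 10739153 and 11438142 miRNA reads and the 2 SST libraries 1278770 and 2457681. A floor of 3 reads stood at 0.279 and 0.262 RPM (reads per 1000000 miRNA reads) in PV libraries and at 2.35 and 1.22 RPM in SST libraries; such floors account for counting error alone, because PCR copies carried no molecular identifiers. Across miRNAs, log2 values correlated at 0.993 between the PV libraries and at 0.97 between the SST libraries, against 0.944 to 0.949 for a PV with an SST library. mRNA was not measured, so the labels could not be checked against Pvalb or Sst. Each value is a share of the miRNA pool of its library, and fewer cells of a type and less RNA per cell cannot be told apart.

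In PV libraries, miR-1, miR-133a and miR-133b, miR-34a and miR-218 took a larger share of Ago2-bound miRNA than in SST libraries, by 5.28-fold to 64.0-fold, and so did miR-124, the most abundant miRNA in PV libraries. A longer list took a smaller share in PV libraries. Among those that averaged 100 RPM or more, the lowest log2 changes were those of miR-187, miR-551b, miR-7b, miR-31, miR-7a and miR-137, which were 11.6-fold to 85.1-fold lower. Of the 522 miRNAs tested, 152 were called at an adjusted p under 0.05 (29.1%; limma with Benjamini-Hochberg adjustment), of which 21 were higher (4.02%) and 131 lower (25.1%) in PV libraries. All 152 had PV and SST libraries that did not overlap, as did 346 of the 522 tested (66.3%). Of the 176 miRNAs that averaged 100 RPM or more, 9 were called higher and 73 lower.

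The balance of higher and lower calls depended on scaling. The median log2 change of all tested miRNAs was -0.42 as reported and 0.11 after TMM scaling, a trimmed-mean correction that assumes most miRNAs not to differ, under which 118 miRNAs were called (22.6%), 61 higher (11.7%) and 57 lower (10.9%). The share of calls that were higher was 13.8% as reported and 51.7% with TMM. All 21 higher calls were also made with TMM, as were 57 of the 131 lower calls, and 0 of the lower calls were called higher. On recovered reads, edgeR called 123 (23.6%), 45 higher (8.62%) and 78 lower (14.9%), and DESeq2 called 129 (24.7%), 55 higher (10.5%) and 74 lower (14.2%). A set of 76 miRNAs, 19 higher and 57 lower, was called the same way by limma, by limma with TMM, by edgeR and by DESeq2. Leaving out PV replicate 1 left 94 calls, 80 of them lower. With 2 libraries against 2, an exact permutation test of a single miRNA cannot give a p below 0.333, so the calls rest on fits across all miRNAs, as reported with the spread shared across the 7 groups of the series. Fitted to the PV and SST libraries alone, limma called 107 miRNAs, 16 higher and 91 lower.

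**Figure D1:**
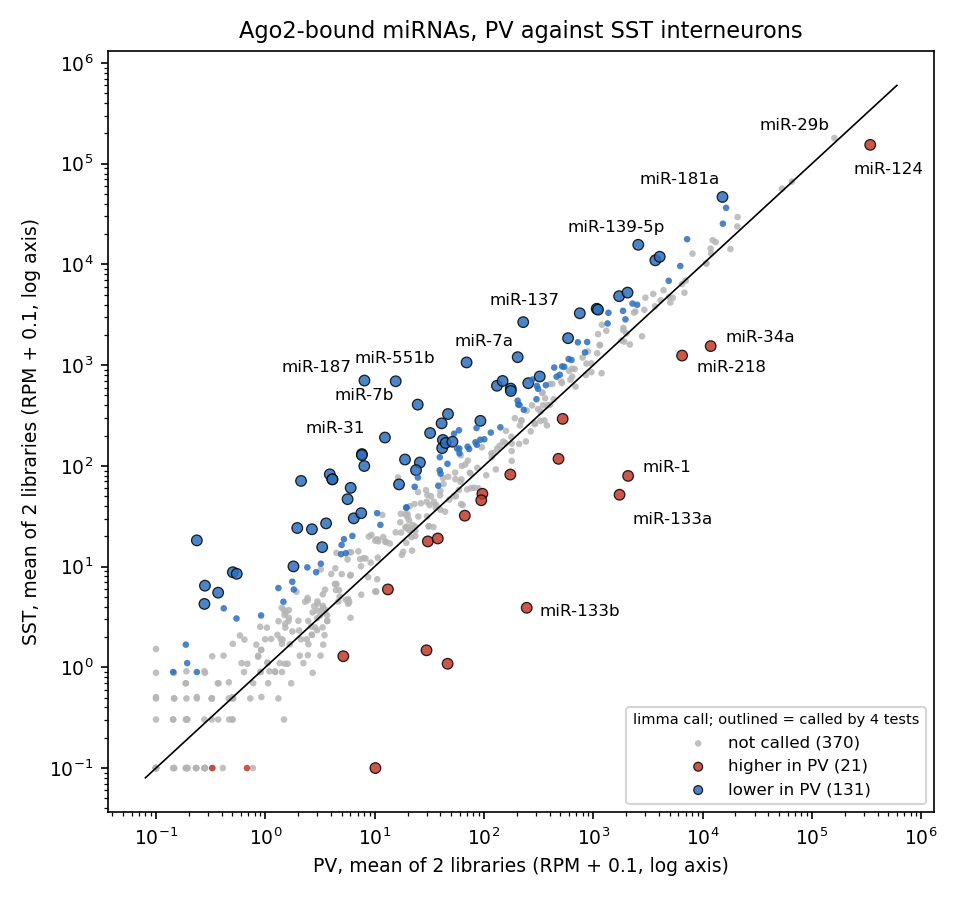
Each point is 1 of 522 miRNAs, with the mean of the 2 PV libraries on the x axis and of the 2 SST libraries on the y axis (RPM + 0.1, both log axes); colours give the limma call and outlined points were called by all 4 tests. The miR-1 and miR-133 points lie far below the line of equal share, and miR-187 and miR-551b far above it, while most points lie slightly above it.

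The largest relative gain in PV libraries was in the miR-1 and miR-133 families, which are best known from skeletal and heart muscle. miR-133b stood at 234 and 258 RPM in PV libraries, against 3.13 and 4.48 RPM in SST libraries. miR-133a stood at 1429 and 2053 RPM in PV libraries, against 52.4 and 50.9 RPM in SST libraries. miR-1 stood at 1849 and 2323 RPM in PV libraries, against 85.2 and 73.6 RPM in SST libraries. For all 3 miRNAs both PV libraries were far above both SST libraries, and the PV replicates lay closer to each other than to any SST library. The log2 changes, on the scale log2(value + 0.1 RPM), were 6.00 ± 0.28 (SE) for miR-133b (adjusted p = 8.5e-13), 5.05 ± 0.20 for miR-133a (adjusted p = 1.35e-13) and 4.71 ± 0.30 for miR-1 (adjusted p = 1.52e-10).

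The minor arm miR-133a* had 7.82 and 12.3 RPM in PV libraries and no reads in either SST library, which puts it at least 4.29-fold higher in PV against the 3-read floor of the shallower SST library. Of the 5 tested names of these families 4 were called higher, against 4.02% of all tested. miR-1 and miR-133a are produced together from shared transcripts, and the ratio of miR-1 to miR-133a was 1.29 and 1.13 in PV libraries, against 1.63 and 1.45 in SST libraries. Their ratio thus differed far less between the groups than their levels did. The summed level of the 5 names was 3520 and 4647 RPM in PV libraries and 141 and 129 RPM in SST libraries. Gad2 libraries stood at 1008 to 1033 RPM, Camk2a libraries at 274 to 322 RPM and Neocortex libraries at 241 to 433 RPM. PV libraries were therefore the highest of these 5 groups and SST libraries the lowest.

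**Figure D2:**
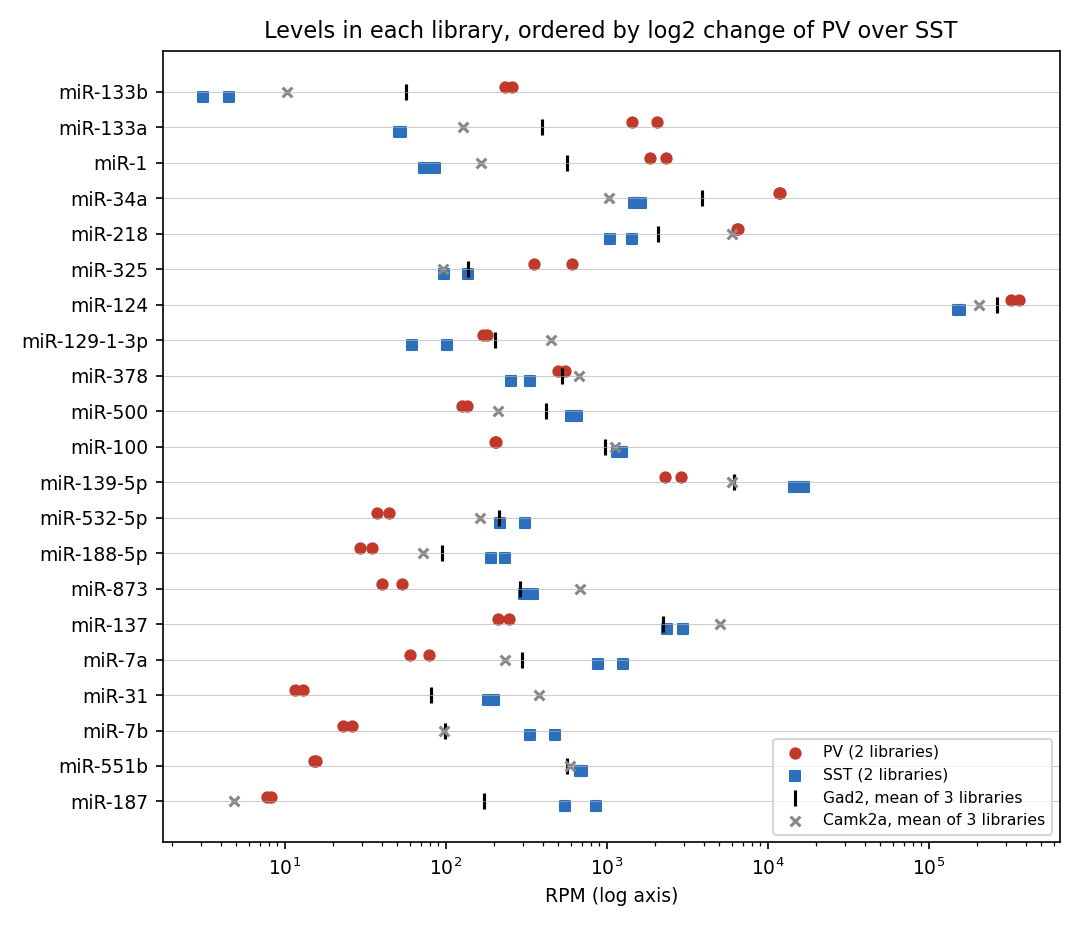
Level in each library (RPM, log axis) of the 9 miRNAs called higher and the 12 of lowest log2 change, among those that averaged 100 RPM or more; red circles are the 2 PV libraries and blue squares the 2 SST libraries, a bar is the mean of 3 Gad2 libraries and a cross the mean of 3 Camk2a libraries. Rows were chosen to have PV and SST libraries that do not overlap. miR-187 is low in Camk2a libraries (mean 4.83 RPM) while miR-551b is not (588 RPM).

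miR-34a, a miRNA induced by p53 in many cells, had 11772 and 11981 RPM in PV libraries and 1620 and 1475 RPM in SST libraries. The PV replicates were nearly equal and lay well above both SST replicates, and the Gad2 mean of 3902 RPM fell between them. Its log2 change was 2.94 ± 0.31 (adjusted p = 1.55e-07). The other arm, miR-34a*, had 27.7 and 31.7 RPM in PV libraries and 2.35 and 0.407 RPM in SST libraries (log2 change 4.74 ± 0.61, adjusted p = 2.88e-06; 0.0568 with the PV and SST libraries alone); the lower SST value is under that library's 3-read floor.

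miR-34c, a relative of miR-34a made from another gene, went the other way, with 75.4 and 95.6 RPM in PV libraries and 232 and 243 RPM in SST libraries (log2 change -1.48 ± 0.33, adjusted p = 0.00185). This call was lost with TMM (-0.85, adjusted p = 0.0827), while its sign stayed. The ratio of miR-34a to miR-34c, which does not depend on scaling, was 156 and 125 in PV libraries and 6.97 and 6.07 in SST libraries.

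miR-218 is encoded inside the axon guidance genes Slit2 and Slit3. It had 6559 and 6444 RPM in PV libraries and 1054 and 1436 RPM in SST libraries. Both PV libraries exceeded both SST libraries and lay close to the Camk2a mean of 6004 RPM, while the Gad2 mean was 2094 RPM. The log2 change was 2.40 ± 0.24 (adjusted p = 9e-08). The arm specific to the Slit2 copy, miR-218-1*, had 4.38 and 5.77 RPM in PV libraries and 1.56 and 0.814 RPM in SST libraries, and its call (log2 change 2.06 ± 0.54, adjusted p = 0.00664) was lost without PV replicate 2 (adjusted p = 0.0714), without SST replicate 2 (adjusted p = 0.0591) or with the PV and SST libraries alone (adjusted p = 0.0669). Both of its SST values are under the 3-read floor of their library. The arm specific to the Slit3 copy, miR-218-2*, had 6.24 and 5.59 RPM in PV libraries and 2.35 and 3.66 RPM in SST libraries and was not called (log2 change 0.99 ± 0.51, adjusted p = 0.163).

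miR-124, the dominant miRNA of neurons, took 36.3% and 32.2% of all miRNA reads in PV libraries, against 15.3% and 15.5% in SST libraries. The groups did not overlap, and the share in Gad2 libraries was 26.5% ± 2.01 (SD, n = 3) and in Camk2a libraries 20.5% ± 1.99 (SD, n = 3). Its log2 change was 1.15 ± 0.19 (adjusted p = 8.61e-05). A share this large bears on all other shares: with miR-124 left out of each library total, an alternative added after the data were seen, the median log2 change of all tested miRNAs was -0.1 and 104 miRNAs were called (19.9%), 33 higher (6.32%) and 71 lower (13.6%).

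miR-325 had 355 and 608 RPM in PV libraries and 97.8 and 137 RPM in SST libraries (log2 change 2.0 ± 0.38, adjusted p = 0.000324). miR-378, an intronic miRNA of the metabolic coactivator gene Ppargc1b, had 498 and 553 RPM in PV libraries and 254 and 332 RPM in SST libraries (log2 change 0.85 ± 0.25, adjusted p = 0.0146). Its other arm, miR-378*, had 35.9 and 39.7 RPM in PV libraries and 19.6 and 18.3 RPM in SST libraries (log2 change 0.99 ± 0.27, adjusted p = 0.00959). PV libraries were higher in all 3 cases, but the calls of miR-378 and miR-378* were each lost without 1 library, with an adjusted p of 0.0932 and 0.0753 without PV replicate 2, and miR-378 also without SST replicate 1 (adjusted p = 0.139). With the PV and SST libraries alone the calls of miR-325 (adjusted p = 0.0529) and miR-378 (adjusted p = 0.0643) were lost too.

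miR-129-1-3p, from 1 of the genes of a brain-enriched miRNA, had 170 and 179 RPM in PV libraries and 61.8 and 102 RPM in SST libraries (log2 change 1.13 ± 0.35, adjusted p = 0.0176). This call was lost without PV replicate 1 (adjusted p = 0.0719), PV replicate 2 (0.086) or SST replicate 1 (0.208), and with the PV and SST libraries alone (0.0957). Of the 3 miR-129 names 1 was called higher and 0 lower, with a median log2 change of -0.28. Together they summed to 1543 and 1706 RPM in PV libraries and 1980 and 1752 RPM in SST libraries. miR-182, a miRNA of sensory neurons and photoreceptors, had 90.2 and 2.71 RPM in PV libraries and 1.56 and 0.407 RPM in SST libraries. A single PV library was high: without PV replicate 1 the log2 change was 1.61 (adjusted p = 0.38), against 4.12 ± 1.16 (adjusted p = 0.0114) with it. The call of miR-182 was also lost without SST replicate 2 (adjusted p = 0.111) and with the PV and SST libraries alone (0.259). Among less abundant miRNAs, named after their values were seen, miR-499, which lies in a myosin heavy chain gene, had 75.2 and 58.3 RPM in PV libraries and 29.7 and 34.2 RPM in SST libraries (log2 change 1.05 ± 0.32, adjusted p = 0.0176). Its call was lost without PV replicate 1 (adjusted p = 0.171), without SST replicate 1 (0.0964) and with the PV and SST libraries alone (0.0529). The called minor arms miR-15b* and miR-181a-2* had no SST reads and PV means below the 3-read floor of the shallower SST library, so no fold is given.

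miR-187 had the lowest log2 change of all. It had 7.73 and 8.22 RPM in PV libraries and 551 and 855 RPM in SST libraries. Both SST libraries lay far above both PV libraries, and the Gad2 mean of 172 RPM fell between them. The log2 change was -6.41 ± 0.55 (adjusted p = 1.28e-08), which is 85.1-fold lower in PV. Its minor arm, miR-187*, had 0.186 and 0.087 RPM in PV libraries, both under the floor, and 19.6 and 16.7 RPM in SST libraries (adjusted p = 8.88e-07).

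miR-551b had 15.3 and 15.7 RPM in PV libraries and 705 and 679 RPM in SST libraries, a log2 change of -5.47 ± 0.34 (adjusted p = 1.3e-10). The PV libraries were the lowest here, since Gad2 libraries averaged 566 RPM, Camk2a libraries 588 RPM and Neocortex libraries 544 RPM. miR-31 had 11.6 and 13.0 RPM in PV libraries and 183 and 199 RPM in SST libraries (log2 change -3.94 ± 0.30, adjusted p = 1.97e-09). Its Gad2 mean was 81.3 RPM and its Camk2a mean 382 RPM, above the SST libraries.

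miR-137, a neuronal miRNA of synapse and neurite development whose human gene lies in a schizophrenia risk locus, had 246 and 212 RPM in PV libraries and 2991 and 2360 RPM in SST libraries. The SST libraries were close to the Gad2 mean of 2221 RPM, and the Camk2a mean was higher still at 5013 RPM. Its log2 change was -3.54 ± 0.28 (adjusted p = 5.25e-09). miR-873 had 53.3 and 40.4 RPM in PV libraries and 348 and 306 RPM in SST libraries (log2 change -2.81 ± 0.23, adjusted p = 7.13e-09), with a Camk2a mean of 679 RPM. Among abundant miRNAs, miR-139-5p had 2286 and 2878 RPM in PV libraries and 16853 and 14516 RPM in SST libraries (log2 change -2.61 ± 0.32, adjusted p = 1.27e-06). Here the SST libraries were above the Gad2 mean of 6128 RPM and the Camk2a mean of 6021 RPM.

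A list of both arms of miR-187, miR-551b, miR-31, miR-139 and miR-873 had 10 of 10 names lower, against 25.1% of all tested, with a median log2 change of -3.94 against -0.42 over all tested; these names were chosen from earlier results of the same libraries, so the count is not independent evidence of direction. The list includes minor arms near the floor, such as miR-31* with 0.093 and 0.262 RPM in PV libraries and 5.47 and 2.85 RPM in SST libraries. miR-204, an intronic miRNA of Trpm3, had 8.10 and 6.99 RPM in PV libraries and 129 and 127 RPM in SST libraries (log2 change -4.07 ± 0.35, adjusted p = 1.3e-08). miR-135b, which had 7.45 and 3.67 RPM in PV libraries and 56.3 and 37.0 RPM in SST libraries, was also lower (log2 change -3.10 ± 0.47, adjusted p = 2.91e-05).

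miR-7a and miR-7b, which share a seed and are known from neuroendocrine cells, were both lower in PV libraries. miR-7a had 60.2 and 78.5 RPM in PV libraries and 1252 and 877 RPM in SST libraries (log2 change -3.93 ± 0.36, adjusted p = 2.56e-08). miR-7b had 23.1 and 26.3 RPM in PV libraries and 478 and 334 RPM in SST libraries (log2 change -4.01 ± 0.38, adjusted p = 4.25e-08). SST libraries were the highest of the neocortical groups, with Gad2 means of 299 RPM for miR-7a and 98.9 RPM for miR-7b. The other arm of the Hnrnpk copy, miR-7a-1*, had 60.2 and 57.9 RPM in PV libraries and 50.8 and 64.3 RPM in SST libraries, overlapping between groups (log2 change 0.05 ± 0.31, adjusted p = 0.938).

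The share of the minor arms among all reads of the miR-7a hairpins was therefore 50.1% and 42.6% in PV libraries and 3.96% and 6.99% in SST libraries. This share pools miR-7a-1* and miR-7a-2* over 2 copies, so it is not the arm share of a single hairpin. miR-7a-2* and miR-7b*, summed as 1 seed family, had 1.12 and 2.36 RPM in PV libraries and 3.91 and 3.26 RPM in SST libraries. The log2 ratio of minor to major arm was 3.95 ± 0.53 higher in PV (adjusted p = 1.98e-04 over 151 hairpins; limma with Benjamini-Hochberg adjustment), and this ratio does not depend on scaling. It was the 1 arm ratio called of 151 as reported (0.662%), while 16 had an unadjusted p under 0.05. miR-7b did not pass the test as reported, with minor-arm shares of 3.5% and 7.1% in PV libraries and 0.65% and 0.485% in SST libraries (log2 difference 3.10 ± 0.79, adjusted p = 0.0864). Its SST shares rest on 4 reads each. limma called it with 5 added to each arm (log2 difference 2.5, adjusted p = 0.00967) and with the PV and SST libraries alone (3.1, adjusted p = 0.0284). Of 62 hairpins whose major arm was called, the minor arm was called the same way in 30 and the other way in 0. Over all tested miRNAs, 29.1% were called. The minor arm had the same sign in 58 of the 62. The median log2 change of all tested miRNAs was -0.42, so a shared sign is common by itself. The same count over all 135 such hairpins is not given here.

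**Figure D3:**
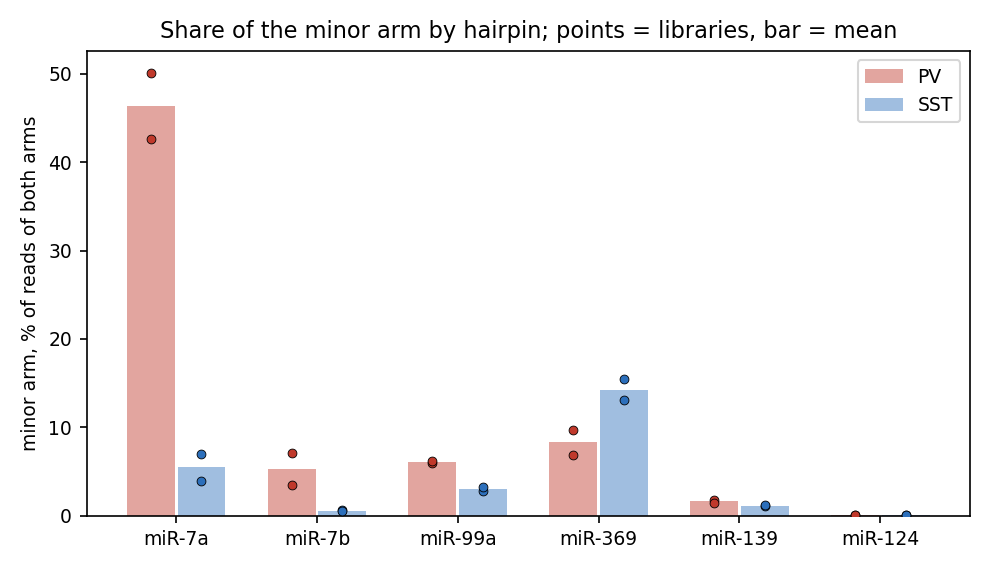
Minor arm as a percentage of the reads of both arms for 6 hairpins; points are libraries, bars their means, with PV left and SST right. miR-7a, pooled over its 2 copies, had 50.1% and 42.6% in PV libraries against 3.96% and 6.99% in SST libraries. The other 5 hairpins were not called as reported.

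Several genomic clusters were lower in PV libraries as blocks; the clusters described were chosen after their values were seen, from 27 with at least 2 hairpins within 10 kb of each other and 3 tested names. On the X chromosome, 5 hairpins in an intron of Clcn5, a chloride transporter gene, had 9 of 10 names lower, against 25.1% of all tested, and 8 of them were lower by all 4 tests, as were 57 of the 522 tested. Their summed level was 274 and 260 RPM in PV libraries and 1481 and 1306 RPM in SST libraries. Within it, miR-188-5p had 34.8 and 29.4 RPM in PV libraries and 191 and 233 RPM in SST libraries (log2 change -2.72 ± 0.28, adjusted p = 1.16e-07). miR-532-5p had a log2 change of -2.67 ± 0.22 (adjusted p = 7.47e-09) and miR-500 of -2.25 ± 0.19 (adjusted p = 7.13e-09).

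On chromosome 2, the imprinted neighbours miR-296 and miR-298 had 3 of 3 names lower, against 25.1% of all tested, with summed levels of 9.03 and 11.0 RPM in PV libraries and 216 and 194 RPM in SST libraries. By all 4 tests 2 of the 3 were lower: the call of miR-296-5p was lost with TMM (adjusted p = 0.0558), edgeR (0.0673), DESeq2 (0.0554) and the PV and SST libraries alone (0.163), and without PV replicate 1 (0.119) or SST replicate 1 (0.186). Of these, miR-298 had 6.89 and 8.22 RPM in PV libraries and 124 and 138 RPM in SST libraries (log2 change -4.10 ± 0.35, adjusted p = 9.31e-09). In contrast, the large imprinted Dlk1-Dio3 domain on chromosome 12, which holds many neuronal miRNAs, was near the background: 14 of 64 distal names (21.9%) and 6 of 27 proximal names (22.2%) were lower, against 25.1% lower over all tested. No name of the domain was called higher by limma as reported. With TMM, 6 distal names were higher and 3 lower, and 4 proximal names were higher and 1 lower. Over all tested, TMM called 11.7% higher and 10.9% lower, so the balance turned there too. Within the domain, miR-381 had 995 and 1158 RPM in PV libraries and 3839 and 3426 RPM in SST libraries (log2 change -1.76 ± 0.19, adjusted p = 3.12e-07), and miR-541 had 584 and 593 RPM in PV libraries and 2023 and 1684 RPM in SST libraries (log2 change -1.65 ± 0.24, adjusted p = 1.42e-05).

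miR-132 and miR-212 are neighbours that neuronal activity induces through CREB. All 4 of their arms were lower, against 25.1% of all tested, with a median log2 change of -1.72, against -0.42 over all tested, and summed levels of 399 and 431 RPM in PV libraries and 1772 and 1384 RPM in SST libraries. miR-132 itself had 141 and 156 RPM in PV libraries and 842 and 552 RPM in SST libraries (log2 change -2.20 ± 0.26, adjusted p = 1.12e-06). PV libraries were the lowest of the neocortical groups in this summed level, as Gad2 libraries had 704 to 1124 RPM and Camk2a libraries 3152 to 3748 RPM. Of the 4 calls, that of miR-212-5p was lost with TMM (adjusted p = 0.051), without SST replicate 1 (0.066) and with the PV and SST libraries alone (0.0781).

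In the miR-125, miR-99 and miR-100 families, 10 of 11 names were lower as reported, against 25.1% of all tested, and 3 with TMM, against 10.9% of all tested. edgeR called 5 of them lower and DESeq2 4, against 14.9% and 14.2% of all tested. Their summed level was 11386 and 11867 RPM in PV libraries and 29752 and 26431 RPM in SST libraries. miR-100 had 203 and 205 RPM in PV libraries and 1163 and 1239 RPM in SST libraries (log2 change -2.56 ± 0.16, adjusted p = 1.04e-10). miR-99a had 1037 and 1174 RPM in PV libraries and 2995 and 4119 RPM in SST libraries (log2 change -1.67 ± 0.20, adjusted p = 9.46e-07). Both were called by all 4 tests.

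miR-181a, one of the most abundant miRNAs of both groups, had 14453 and 15997 RPM in PV libraries and 45148 and 48424 RPM in SST libraries (log2 change -1.62 ± 0.23, adjusted p = 1.02e-05). miR-181b, made from neighbouring hairpins, had 3734 and 4384 RPM in PV libraries and 11240 and 12609 RPM in SST libraries (log2 change -1.56 ± 0.17, adjusted p = 3.12e-07). The PV libraries were near the Gad2 mean of 19961 RPM for miR-181a and far above the Camk2a mean of 5311 RPM. miR-16, known as a brake on the cell cycle, had 2975 and 4428 RPM in PV libraries and 11642 and 10346 RPM in SST libraries (log2 change -1.60 ± 0.27, adjusted p = 0.000107). miR-26a had 14416 and 18448 RPM in PV libraries and 39320 and 33674 RPM in SST libraries (log2 change -1.16 ± 0.24, adjusted p = 0.000847), and this call was lost with TMM (log2 change -0.52, adjusted p = 0.185).

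Summed by shared seed, 41 families of 108 names were tested, and 15 were called (36.6%), 1 higher (2.44%) and 14 lower (34.1%) in PV libraries. Each sum held only names matched to a sequence, 361 of the 528, so a family may lack members. The higher family was that of miR-34a and miR-34b-5p, seed GGCAGUG, nearly all of it miR-34a. It had 11804 and 12010 RPM in PV libraries and 1673 and 1524 RPM in SST libraries (log2 change 2.90 ± 0.31, adjusted p = 2.6e-08). miR-34c, called lower in PV libraries, was not in this sum. Among the lower families, that of miR-7a and miR-7b had a log2 change of -3.95 ± 0.35 (adjusted p = 1.08e-09) and that of miR-132 and miR-212-3p of -2.09 ± 0.28 (adjusted p = 7.71e-07). The 4 miR-181 members summed to 20910 and 23116 RPM in PV libraries and 59996 and 65344 RPM in SST libraries (log2 change -1.51 ± 0.21, adjusted p = 1.99e-06). The family of miR-199a-3p and miR-199b was the lowest, at -4.18 ± 0.35 (adjusted p = 7.45e-10), but both names carry almost the same reads (3.91 RPM each in PV replicate 1), so it counts 1 measurement more than once. With TMM, 4 families were higher and 7 lower.

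**Figure D4:**
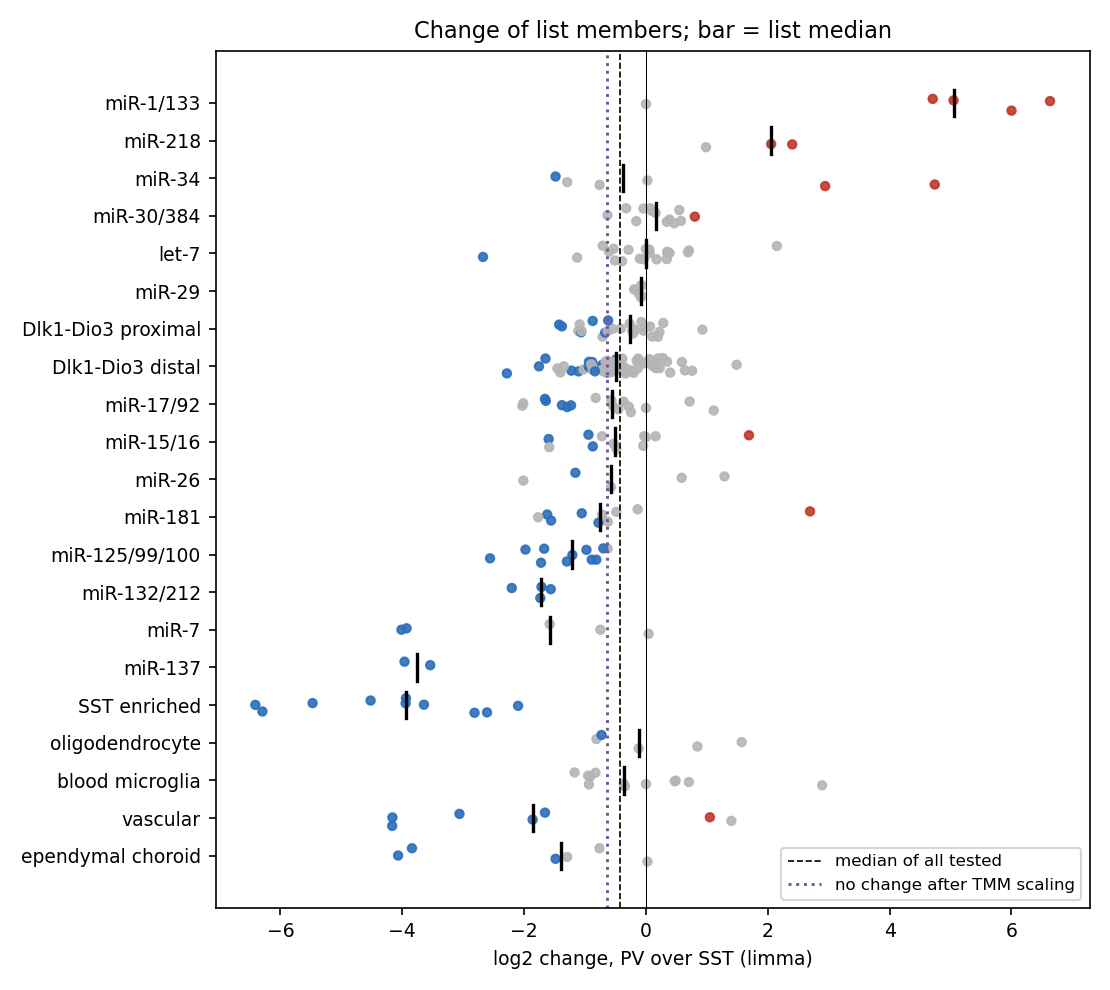
Log2 change of PV over SST (x axis) of each tested member of 21 lists (rows); red points were called higher, blue lower and grey not called, and a black bar is the list's median. The dashed line is the median of all tested miRNAs, -0.42, and the dotted line the point of no change after TMM scaling; "SST enriched" is the list of both arms of miR-187, miR-551b, miR-31, miR-139 and miR-873; the point furthest to the right is miR-133a*, whose fitted value depends on the pseudocount because it had no SST reads.

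Several abundant families had few calls or none as reported. Over all tested, limma called 29.1% as reported, edgeR 23.6% and DESeq2 24.7%. miR-29b had 161740 and 160105 RPM in PV libraries and 177550 and 182469 RPM in SST libraries (log2 change -0.16 ± 0.20, adjusted p = 0.615), and 0 of 7 names of the miR-29 list were called by limma, edgeR or DESeq2, nor did any have an unadjusted p under 0.05. miR-9, which promotes neurogenesis, had 67394 and 63797 RPM in PV libraries and 68021 and 64935 RPM in SST libraries. Its groups overlapped and its log2 change was -0.02 ± 0.17 (adjusted p = 0.956), but it was called higher in PV with TMM (0.62, adjusted p = 0.0285) and with DESeq2 (0.51, adjusted p = 0.0359). The 9 members of the let-7 seed family summed to 61733 and 76000 RPM in PV libraries and 76148 and 71102 RPM in SST libraries, also overlapping (log2 change -0.10 ± 0.17, adjusted p = 0.68). Of 21 let-7 names, limma called 1 lower as reported (let-7a-2*, lost with TMM at an adjusted p of 0.127) and 0 higher. With TMM 6 were higher and 0 lower, against 11.7% and 10.9% of all tested. edgeR called 3 higher and DESeq2 5, against 8.62% and 10.5% of all tested.

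Of a list of 33 neuronal miRNA names, 4 were higher and 13 lower in PV libraries, against 4.02% higher and 25.1% lower over all tested. The balance depended on scaling, with 8 higher and 8 lower under TMM, 6 and 11 by edgeR and 7 and 11 by DESeq2. Over all tested, these shares were 11.7% and 10.9% with TMM, 8.62% and 14.9% by edgeR and 10.5% and 14.2% by DESeq2. The summed level of the list, mostly miR-124, was 471627 and 426789 RPM in PV libraries and 279569 and 275951 RPM in SST libraries. miR-128 was abundant in Camk2a libraries, where its list summed to 143261 to 170478 RPM, but stood at 1779 and 1999 RPM in PV libraries and 2145 and 2545 RPM in SST libraries. The list of miR-221 and miR-222 summed to 60.7 and 47.3 RPM in PV libraries, 83.7 and 74.9 RPM in SST libraries and 2946 to 3701 RPM in Camk2a libraries. Between PV and SST libraries, 0 of 3 miR-128 names and 0 of 4 miR-221 and miR-222 names were called by limma, with or without TMM, by edgeR or by DESeq2. Of these names 0 had an unadjusted p under 0.05 as reported. Over all tested, 29.1% were called as reported, 22.6% with TMM, 23.6% by edgeR and 24.7% by DESeq2. So few names without a call do not show that the groups were alike.

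Markers of other cells moved with the comparison in part. Of 7 vascular names, 5 were lower in PV libraries and 1 was higher, against 25.1% lower and 4.02% higher over all tested. With TMM 4 were lower, against 10.9% of all tested. The 5 include miR-199a-3p and miR-199b, which carry almost the same reads. The list summed to 303 and 339 RPM in PV libraries, 917 and 885 RPM in SST libraries and 7986 to 8322 RPM in Neocortex libraries. The endothelial miR-126-3p had 162 and 190 RPM in PV libraries and 568 and 542 RPM in SST libraries (log2 change -1.66 ± 0.19, adjusted p = 5.16e-07). miR-143 of smooth muscle went the other way, with 87.2 and 102 RPM in PV libraries and 43.8 and 47.2 RPM in SST libraries (log2 change 1.05 ± 0.20, adjusted p = 0.000434), so the ratio of miR-126-3p to miR-143 was 1.86 and 1.87 in PV libraries and 13.0 and 11.5 in SST libraries. In the vascular list 0 names were at 0 in PV libraries and 1 was at 0 in SST libraries.

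Of 6 ependymal and choroid plexus names, 3 were lower (miR-204, miR-204* and miR-34c), against 25.1% of all tested, and 2 with TMM, against 10.9%. None was at 0 in either group. Their sum was 118 and 137 RPM in PV libraries, 425 and 430 RPM in SST libraries and 97.4 to 125 RPM in Neocortex libraries. The SST libraries were thus above whole tissue, unlike for the vascular list. Of 5 oligodendrocyte names, 1 was lower, against 25.1% of all tested (miR-338-5p, lost with TMM at an adjusted p of 0.849), and 0 were higher as reported. TMM, edgeR and DESeq2 each called 1 higher (miR-219-5p) and 0 lower, against 11.7%, 8.62% and 10.5% higher over all tested. The list had sums of 1114 and 907 RPM in PV libraries and 1011 and 1219 RPM in SST libraries, which overlapped. Of 12 tested blood and microglia names 0 were called by limma, edgeR or DESeq2, against 29.1%, 23.6% and 24.7% of all tested, and 2 had an unadjusted p under 0.05. Of 14 astrocyte names 0 were called by limma as reported, edgeR or DESeq2, against the same shares of all tested. With TMM 1 was called higher, against 11.7% of all tested, and 0 had an unadjusted p under 0.05 as reported. The astrocyte list includes the 7 miR-29 names described above. Its sum was 238926 and 243193 RPM in PV libraries and 259954 and 274231 RPM in SST libraries. Neocortex libraries had 146484 to 185986.5 RPM. The miR-29 names alone summed to 233386 and 238163 RPM in PV libraries and 253222 and 269137 RPM in SST libraries. In Neocortex libraries they summed to 138763 to 178411 RPM. The sum of the astrocyte list thus mostly follows miR-29 and cannot be read as a marker of other cells here. Its other names were not summed apart. The part of the cell types of these lists in the results above was not tested.

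As context, the mean level in Gad2 libraries lay between the PV mean and the SST mean for 131 of the 152 called miRNAs and for 71 of the 76 called by all 4 tests, against 222 of all 522 tested. Calls were chosen for a wide gap between PV and SST libraries, so a value from another group falls between their means more often. The contrast with all tested is therefore largely set by that choice and is not evidence for the calls. Gad2 libraries entered the choice through the filter and the shared spread.

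**Figure D5:**
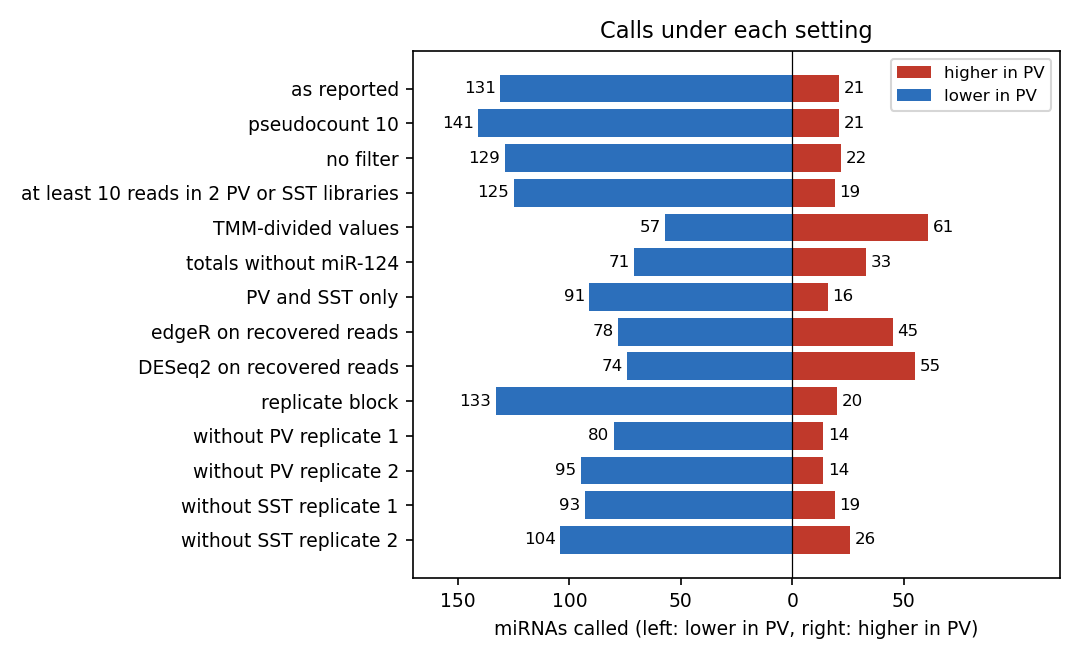
Number of miRNAs called lower (left, blue) and higher (right, red) in PV libraries under each setting. The count of higher calls was 21 as reported and 61 with TMM, and that of lower calls 131 as reported and 57 with TMM.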

How the data were processed

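Small RNA reads of 19 to 24 nt were mapped with Bowtie to mm9, per the submitters' processing notes; no version is given there. The deposited signal of 528 miRNA names holds reads that the authors scaled to equal library totals. Per the file headers the total is 1000000; each column in fact adds up to 10000000, and a division by 10 gave RPM. Whole reads were recovered from the steps of the low values: in all PV and SST columns 100% of low values were whole within 0.1 of a read, and edgeR on these reads called 45 miRNAs higher and 78 lower. limma 3.58.1 in R 4.3.3, with a trend and log2(value + 1) on the deposited scale, was fitted to 7 group means over 19 libraries, keeping names that reached a value of 1 in 2 or more libraries. p-values were adjusted by Benjamini-Hochberg over all tested miRNAs, arm ratios or families. Arm ratios used reads + 0.5 for 151 of 241 pairs, those with at least 20 summed reads in each of the 4 libraries and a mean of 5 per arm. TMM factors and the quasi-likelihood test came from edgeR 4.0.16 and size factors from DESeq2 1.42.0.

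miRNAs named were called, averaged 100 RPM or more and had PV and SST libraries apart (the 12 of highest, of which 9 qualified, and the 12 of lowest log2 change), or were up to 4 called members of a list with at least 10 RPM, other arms of named hairpins, or the most abundant; 70 calls under 100 RPM were otherwise only counted. Members and lists were chosen with earlier results of these data known. Alternatives were other pseudocounts, filters, scalings and tests, the PV and SST libraries alone, a replicate block and leaving out each library. Scripts were tested on simulated data.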

Additional observations from a re-analysis of the deposited data

How the results depend on the processing

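Against 21 higher and 131 lower calls, TMM-scaled values gave 61 and 57, edgeR on recovered reads 45 and 78, DESeq2 55 and 74, and totals without miR-124, added after the data were seen, 33 and 71; 76 miRNAs were called the same way by limma as reported, limma with TMM, edgeR and DESeq2. Leaving out 1 library gave 94 to 130 calls, 14 to 26 higher and 80 to 104 lower, with the fewest without PV replicate 1. Deviations from the group mean correlated at 0.0539 between same-numbered PV and SST libraries. With 2 libraries a group both pairs give this same number, so it cannot show whether same-numbered libraries were handled together. A replicate block gave 153 calls, and the PV and SST libraries alone gave 107. Arm ratios had 6 calls, 3 higher and 3 lower, with 5 added to each arm, and 2, both higher, with PV and SST libraries alone, where miR-7b joined miR-7a (adjusted p = 0.0284); leaving out 1 library left 1. Seed families gave 4 higher and 7 lower calls with TMM, and 12 to 14 lower calls without 1 library. Of the 152 calls, 4 turned from below to above 0 with TMM (miR-127 at 0.02, miR-140* at 0.04, miR-154 at 0.11 and miR-300 at 0.15) and 2 with DESeq2 (miR-154 and miR-300), 0 of them called there, and 0 turned with edgeR or totals without miR-124. The signs of some miRNAs with no call as reported also turned. With TMM, totals without miR-124, edgeR and DESeq2 in this order, the log2 change was 0.47, 0.2, 0.31 and 0.37 for miR-29b, 0.62, 0.34, 0.45 and 0.51 for miR-9, 0.55, 0.28, 0.39 and 0.45 for miR-29a and 0.44, 0.17, 0.27 and 0.33 for miR-29c. For miR-22 it was 0.15 with TMM and 0.03 with DESeq2. Leaving out 1 library gave -0.06 to 0.02 for miR-9 (above 0 without PV replicate 2 or SST replicate 1, where it was 0.01), -0.18 to 0.01 for miR-29a (above 0 without SST replicate 2) and -0.12 to 0.21 for miR-7a-1* (below 0 without SST replicate 1). The cause was not tested. The lower depth of the SST libraries limits what can be said of miRNAs under about 2.35 RPM there.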
